A study of Caenorhabditis elegans with 12 samples.

Results

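Of the 100257 windows of 1000 bases in the deposited table, 342 met a rule for higher RNA coverage in animals without HRDE-1. These 342 windows carried neither of the table's marks, GRTS and GRH. They were chosen by measured values. Each had to lie more than 1 kb, from window start to window start, from any window marked GRTS, and to carry no GRTS or GRH mark itself. The mean of the 3 hrde-1 libraries plus 1 had to be at least 2 times the mean of the 3 N2 libraries plus 1 in generation 3 and again in generation 4. The mean of the 6 hrde-1 libraries had to be at least 3. Of 99716 unmarked windows far enough from a GRTS window, 29438 reached that level, and 342 of those (1.16%) met the fold in both generations. The same rule turned round, with N2 over hrde-1, found 98 windows.

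HRDE-1 is a germline Argonaute protein that carries small interfering RNAs into the nucleus of Caenorhabditis elegans. There, nuclear RNAi pairs these small RNAs with nascent transcripts, lowers transcription and adds histone H3 lysine 9 methylation, and retrotransposons are among its known targets. In this field GRTS stands for germline nuclear RNAi-dependent transcriptional silencing and GRH for germline nuclear RNAi-dependent heterochromatin; neither name is spelled out in the labels, nor is how the marks were set. The windows described here are those outside both marks.

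The libraries came from young adult hermaphrodites of the mutant hrde-1(tm1200) and of the wild type strain N2, all kept at 23 C for 3 or 4 generations. RNA came from whole animals, a nuclear-enriched pellet or a cytoplasmic-enriched sucrose layer, and ribosomal RNA was cleared with DNA oligonucleotides and RNase H, with no poly(A) selection. The 6 groups were hrde-1 whole, hrde-1 nuclear, hrde-1 cytoplasmic, N2 whole, N2 nuclear and N2 cytoplasmic, with 2 libraries each, 1 per generation. Nothing in the labels tells if the fractions came from separate cultures, so p-values measure only the spread between these libraries. Whole animals hold somatic as well as germline cells.

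Values are the authors' normalized coverage, with a floor of 0.1 in each library, and no label or header gives the scale. Low values moved in steps of 1.05 to 4.58, taken here as the value of 1 read, and by that step the libraries held 191240 to 908151 read equivalents. The hrde-1 cytoplasmic libraries held 520745 and 361888, against 191240 and 263394 in the N2 cytoplasmic libraries, the lowest of all. Between 40.2% and 73.0% of windows were at the floor in a library. The table names no genes and its build differs from the annotation at hand, so windows are named by their position in the table, and the level of hrde-1 itself was not analysed here.

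The 342 windows were low in N2 and moderate in hrde-1. In whole RNA their mean coverage was 8.10 and 8.57 in hrde-1 in generations 3 and 4, against 1.69 and 1.62 in N2. In nuclear RNA it was 14.0 and 13.6 in hrde-1, against 3.33 and 3.09 in N2. In cytoplasmic RNA it was 8.01 and 7.62 in hrde-1, against 0.769 and 0.779 in N2. Every hrde-1 library lay above every N2 library of its fraction, as the choice of windows requires of their pooled level, and the 2 generations lay close together. Above the floor, hrde-1 was 5.28 times N2 in whole RNA (8.34 ± 0.330 and 1.66 ± 0.0485, SD, n = 2 each). It was 4.40 times N2 in nuclear RNA (13.8 ± 0.289 and 3.21 ± 0.169). It was 11.4 times N2 in cytoplasmic RNA (7.81 ± 0.280 and 0.774 ± 0.00691), where the N2 value rests on 50 and 74 reads over all 342 windows. Because the rule used this contrast, these values describe the choice and carry no test. In RNA from whole animals and pooled fractions, a change in the number of germline cells and a change in RNA per cell cannot be told apart.

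The 29438 unmarked windows that reached the minimum of 3 in general did not differ between genotypes in this way. They had mean coverage in hrde-1 of 0.974 times N2 in whole RNA, 0.970 times in nuclear RNA and 1.06 times in cytoplasmic RNA. They share only that lower bound with the 342, here called the level, and were not matched in coverage. Their medians in the hrde-1 libraries were 11.6 to 13.2, against 4.71 to 9.74 for the 342. The 191 GRTS windows showed larger ratios than the 342 windows, with 11.8 in whole and 11.9 in nuclear RNA. The windows marked GRH without GRTS showed smaller ones, with 1.62 in whole and 1.39 in nuclear RNA. The fold was asked of the 342 only, so their larger ratios than those of the GRH and other unmarked windows follow from the choice. These ratios were compared as values, with no test, since how the marks were set is not known.

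**Figure D1:**
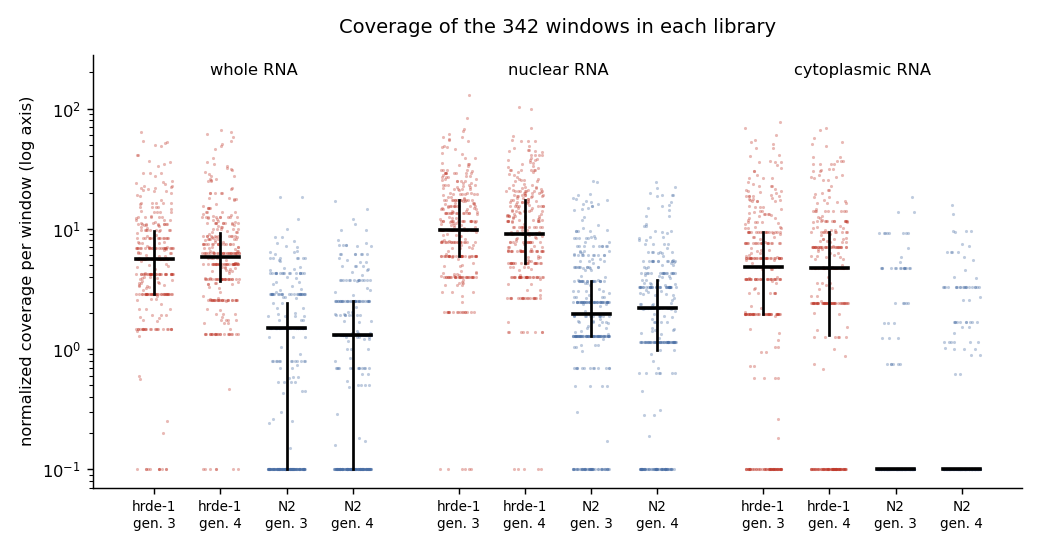
Normalized coverage (log axis) of each of the 342 windows in each of the 12 libraries, hrde-1 in red and N2 in blue, by fraction and generation; each point is a window, the thick bar is the median and the thin bar runs from the lower to the upper quartile. The hrde-1 medians lie between 4.71 and 9.74, and the N2 medians between 0.1, which is the floor, and 2.2.

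Single windows varied widely around these means. Over the 6 hrde-1 libraries a window averaged 3.05 to 59.4, with a median of 6.49, and over the 6 N2 libraries 0.1 to 14.2, with a median of 1.25. The fold used by the rule ran from 2.00 to 29.8 in generation 3 (median 3.22) and from 2.00 to 35.4 in generation 4 (median 3.23). Most windows therefore sat near the lower end of the range of folds. In reads, a window held 11 to 221 over its hrde-1 libraries, with a median of 25, and 0 to 63 over its N2 libraries, with a median of 5.18. In N2, 17 windows had no read at all, 95 had 1 to 3, 155 had 4 to 10 and 75 had 11 or more, so N2 was not silent in most of them.

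Windows at the edge of the rule differed little from each other. Just inside the fold lay a window on chromosome III from 950001 to 951000, with folds of 2.00 in generation 3 and 2.22 in generation 4, and one on chromosome X from 940001 to 941000, with 2.00 and 2.03. Just outside lay a window on chromosome II from 4217001 to 4218000, with 1.996 and 2.15, and one on chromosome III from 9043001 to 9044000, with 1.996 and 2.60. The coverage of these 4 windows is a few reads per library, and their place on either side is a description.

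The fractions did not always contribute together. In nuclear RNA, both hrde-1 libraries lay above both N2 libraries in 303 of the 342 windows (88.6%), against 13.2% of the unmarked windows at the level. In whole RNA this held for 289 windows (84.5%), against 16.6%, and in cytoplasmic RNA for 231 (67.5%), against 31.0%. All 3 fractions separated the genotypes in 166 windows (48.5%), against 1.19%. The rule used the same contrast, so nothing is read from these counts beyond how the 342 windows split: 166 were apart in 3 fractions, 150 in 2, 25 in 1 and 1 in none. The nuclear libraries supplied more than 50% of the summed difference in 135 windows, the cytoplasmic libraries in 54 and the whole libraries in 17.

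The 2 generations share no library, which allows a check that does not use both. Of 29833 unmarked windows at the level in generation 3, 2041 met the fold there, and 332 of these (16.3%) also met it in generation 4, where 2.76% of all such windows did. Of 29138 at the level in generation 4, 1119 met the fold there, and 336 (30.0%) also met it in generation 3, against 4.85%. The median fold in the generation not used for the choice was 1.09 for windows chosen in generation 3, against 0.971 for all windows at that level. For windows chosen in generation 4 it was 1.37, against 1.08. Most windows that met the fold in 1 generation did not meet it in the other. For the opposite direction, with the minimum of 3 set on the N2 mean, 95 of 1112 windows lower in generation 3 (8.54%) were also lower in generation 4, against 2.32% of all windows at that level. Of 1158 windows lower in generation 4, 99 (8.55%) were also lower in generation 3, against 2.20%. In each case all windows at the level include those chosen and were not matched to them in coverage. The shares are thus a description.

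Levels in generations 3 and 4 were also set against each other within a genotype. The rule asked for the fold in both generations, so the windows were chosen on these same values and nothing is read from the counts about stability. With limma on log2(coverage + 1), 0 of the 342 windows were higher and 0 lower in generation 4 than in generation 3 in hrde-1 at an adjusted p under 0.05, as for all 43933 windows tested (0%). Without adjustment, 5 of the 342 (1.46%) had p under 0.05, against 5.02% of all windows. In N2 the counts were 0 and 0 as well, against 0.00228% higher and 0.00910% lower of all windows, and 10 of the 342 (2.92%) had an unadjusted p under 0.05, against 8.67% of all windows.

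The 342 windows were not spread evenly over the genome. Chromosome V held 84 of them, which is 1.85% of its unmarked windows at the level, and chromosome X held 67, which is 1.88%. Chromosome IV held 62 (1.24%), chromosome II 46 (0.967%), chromosome I 45 (0.740%) and chromosome III 38 (0.689%). Chromosome X carries no window marked GRTS and 3 marked GRH, so its 67 windows lie on a chromosome almost without marks. Along the chromosomes, cut into 3 stretches of equal length, 258 windows lay in the outer stretches (1.42% of those at the level) and 84 in the middle ones (0.742%). The right stretch of chromosome V had the highest share of them, with 43 of 1266 (3.40%). C. elegans autosomes have repeat-rich arms and gene-dense centres.

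Distance to the nearest GRTS window also divided them. Of 59 unmarked windows at the level that started 2 kb from a GRTS window, 33 (55.9%) met the rule. From 3 to 10 kb it was 28 of 346 (8.09%), from 11 to 100 kb 44 of 2913 (1.51%), from 101 to 1000 kb 137 of 15079 (0.909%) and beyond 1000 kb 33 of 7478 (0.441%). On the autosomes the share was lower at each longer distance, but most of the 342 were not neighbours of a mark: 237 (69.3%) lay more than 100 kb from any GRTS window or on chromosome X. Near GRH windows, 14 of 91 windows at 1 kb (15.4%) and 41 of 745 within 10 kb (5.50%) met the rule. Counting the gap between window edges instead of starts would drop the 33 windows at 2 kb and leave 309.

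**Figure D2:**
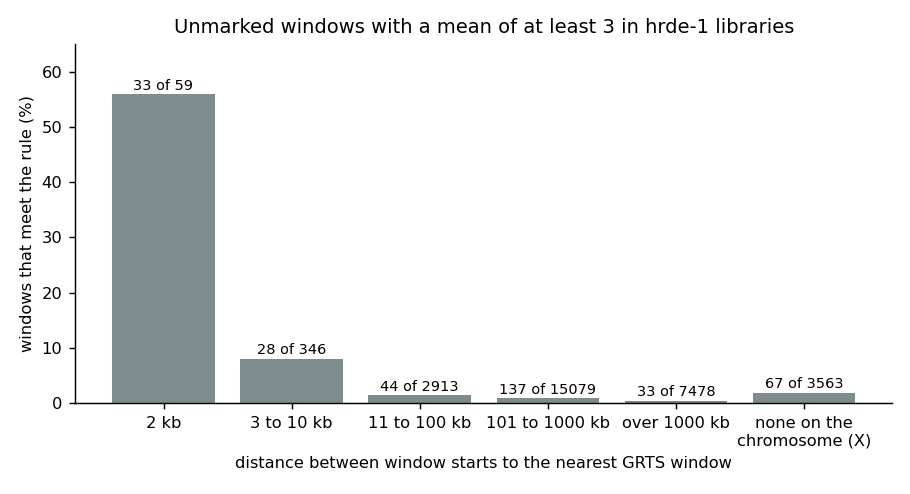
Share of unmarked windows with a mean of at least 3 in hrde-1 libraries that met the rule (bars, in percent, counts above them) by distance between window starts to the nearest GRTS window. The share is 55.9% at 2 kb, 0.441% beyond 1000 kb and 1.88% on chromosome X, which has no GRTS window.

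Neighbouring windows were often chosen together. Joined across gaps of at most 1 window, the 342 windows formed 212 regions, of which 151 were single windows and 61 held more than 1 window, 191 windows in all. There were 16 regions of 4 or more windows, with 95 windows. Windows of 1 region can share a transcript, so they are not independent of each other. The 10 regions with the most windows are described next.

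The region on chromosome X from 17120001 to 17133000 held 12 of the windows and was high in nuclear RNA. Its mean nuclear coverage was 15.0 and 17.4 in hrde-1, against 1.27 and 1.18 in N2. Its whole RNA coverage was 2.60 and 2.43 in hrde-1, against 0.449 and 0.952 in N2, and its cytoplasmic coverage 1.27 and 1.11 in hrde-1, against 0.1 and 0.362 in N2. The groups did not overlap in any fraction, and the nuclear level in hrde-1 was several times that of the other fractions. Above the floor, hrde-1 was 14.3 times N2 in nuclear RNA and 4.02 times in whole RNA. The N2 cytoplasmic value rests on 1 read and gives no ratio. A second region of this kind lay on chromosome III from 13233001 to 13238000, with 5 windows, 2 kb from a GRTS window. Its nuclear coverage was 15.7 and 15.3 in hrde-1, against 0.964 and 0.562 in N2, a ratio above the floor of 23.2, while its cytoplasmic coverage in hrde-1 was 0.568 and 0.522, from 2 reads.

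The region on chromosome X from 16827001 to 16839000 held 11 windows and was high in all 3 fractions. Its whole RNA coverage was 11.3 and 12.3 in hrde-1, against 0.291 and 0.483 in N2. Its nuclear coverage was 17.5 and 20.6 in hrde-1, against 1.24 and 2.14 in N2. Its cytoplasmic coverage was 11.1 and 10.6 in hrde-1, against 0.1 and 0.1 in N2. The groups did not overlap in any fraction, and in whole RNA hrde-1 was 40.8 times N2 above the floor. It was 11.9 times N2 in nuclear RNA, and at least 20.3-fold higher in cytoplasmic RNA, taking 3 reads over both libraries for the N2 group, which had none. Within the region the cytoplasmic signal was narrower than the nuclear one. In the 3 windows 0.5, 1.5 and 2.5 kb right of its centre the mean cytoplasmic coverage in hrde-1 was 25, 34.0 and 37.9. In the 3 windows 0.5, 1.5 and 2.5 kb left of the centre it was 3.48, 3.34 and 2.76, while nuclear coverage there was 13.8, 16.6 and 14.3.

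The region on chromosome IV from 2902001 to 2915000 held 12 windows and was the one with the most reads, 771 in hrde-1 and 244 in N2. Its nuclear coverage was 26.9 and 21.5 in hrde-1, against 8.90 and 8.21 in N2, and its whole RNA coverage 13.0 and 14.6 in hrde-1, against 3.20 and 2.96 in N2. Its cytoplasmic coverage was 13.2 and 12.6 in hrde-1, against 0.768 and 1.31 in N2. In N2 its coverage was thus mainly nuclear, with 6 reads in cytoplasmic RNA, and hrde-1 over N2 had ratios above the floor of 4.59 in whole, 2.85 in nuclear and 13.7 in cytoplasmic RNA. Of its low values, 89.9% lay between whole-read steps, described below. In the regions above that share was 69.3% on chromosome X from 17120001, 58.5% on X from 16827001 and 83.9% on chromosome III from 13233001. Whether reads were divided between copies was not tested in any of them.

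**Figure D3:**
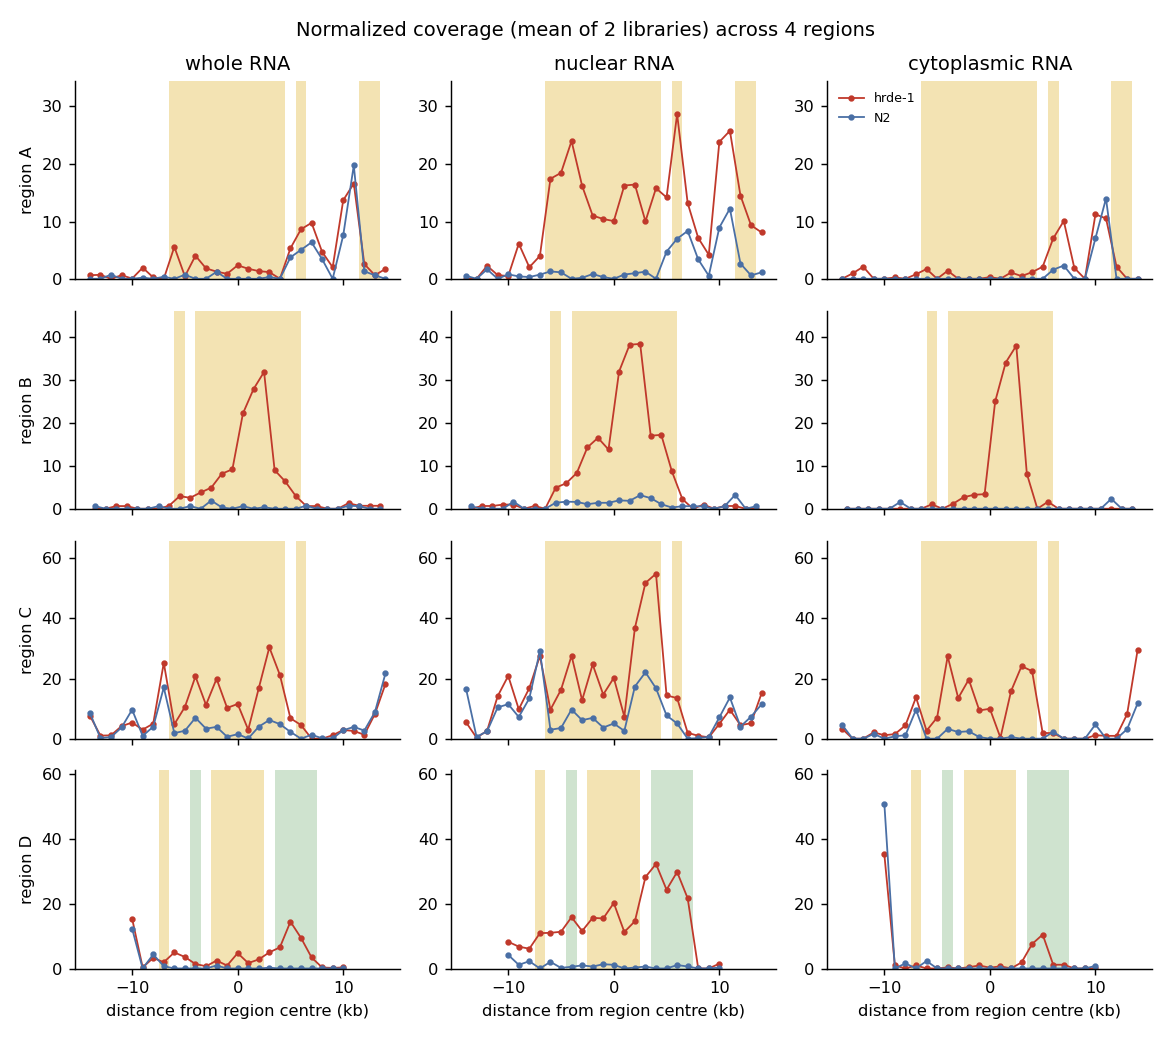
Mean normalized coverage of 2 libraries per window (hrde-1 red, N2 blue) against distance from the region's centre in kb, for whole, nuclear and cytoplasmic RNA, in the regions on chromosome X from 17120001 (A) and from 16827001 (B), on chromosome IV from 2902001 (C) and on chromosome III from 13233001 (D). Yellow bands mark the windows that met the rule and green bands GRTS windows; hrde-1 lies above N2 in the nuclear panels of the yellow bands, and in A and D its cytoplasmic level there stays low, with region means of 1.19 and 0.545.

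On chromosome V from 10852001 to 10856000, 4 windows were highest in cytoplasmic RNA. Cytoplasmic coverage was 44.5 and 47.9 in hrde-1, against 9.26 and 6.40 in N2. Whole RNA coverage was 37.1 and 37.5 in hrde-1, against 9.87 and 9.43 in N2, and nuclear coverage 26.6 and 27.2 in hrde-1, against 12.8 and 15.6 in N2. Its hrde-1 libraries were thus ordered opposite to those of the nuclear regions above, and the ratio above the floor was 5.97 in cytoplasmic, 3.90 in whole and 1.90 in nuclear RNA.

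The other 5 of the 10 regions varied in the same ways. On chromosome V from 18118001 to 18125000, 6 windows averaged 32.6 ± 3.94 in nuclear RNA, 20.3 ± 2.60 in whole RNA and 9.60 ± 1.11 in cytoplasmic RNA of hrde-1, against 2.49 ± 0.837, 1.44 ± 0.361 and 1.52 ± 0.151 in N2. A pair of regions lay close together at the left end of chromosome X, from 226001 to 232000 with 6 windows and from 236001 to 241000 with 5. Their nuclear means were 11.3 ± 1.30 and 13.0 ± 1.83 in hrde-1, against 2.34 ± 0.313 and 2.67 ± 0.208 in N2. Windows of this pair resembled each other in all 12 libraries, as described below. On chromosome III from 6633001 to 6639000, 5 windows had much the same level in each fraction of hrde-1, with 10.8 ± 1.26 in whole, 11.6 ± 1.48 in nuclear and 10.1 ± 1.75 in cytoplasmic RNA, against 0.760 ± 0.255, 2.31 ± 0.448 and 0.558 ± 0.648 in N2. On chromosome I from 13930001 to 13935000, 5 windows had 7.65 ± 0.148, 10.3 ± 0.305 and 10.6 ± 0.431 in hrde-1, against 2.48 ± 0.0410, 3.68 ± 0.744 and 1.16 ± 1.18 in N2, in the same order. Of the low values, 98.1% lay between whole-read steps in this region on I and 0% in that on III. The share was 35.8% in the region on V, and 47.5% and 54% in the pair on X.

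The single windows with the highest coverage in hrde-1, outside those regions, were led by chromosome X from 4713001 to 4714000. It had 34.3 and 65.7 in whole, 57.9 and 54.9 in nuclear and 76.8 and 66.9 in cytoplasmic RNA of hrde-1, against 8.48 and 9.73, 19.0 and 19.0, and 0.1 and 15.8 in N2. Its N2 cytoplasmic libraries differed strongly from each other. The next, on chromosome I from 13853001 to 13854000, was nuclear. It had 129.2 and 103.4 in nuclear, 41.2 and 33.5 in whole and 5.71 and 13.9 in cytoplasmic RNA of hrde-1, against 6 and 1.15, 1.5 and 0.1, and 0.1 and 0.1 in N2. The other 3 lay on chromosome X from 4714001 to 4715000, on chromosome II from 1847001 to 1848000 and on chromosome I from 9710001 to 9711000, with means over the hrde-1 libraries of 49.3, 48.4 and 45.9, against 10.6, 6.52 and 11.5 in N2.

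The rule used the mean of the hrde-1 fractions and not the difference between nuclear and cytoplasmic RNA, which was tested. A window high in 1 fraction alone can meet the rule, so this difference is not independent of the choice. In hrde-1, the summed coverage of the 342 windows in nuclear RNA was 1.75 and 1.79 times that in cytoplasmic RNA in generations 3 and 4, against 0.921 and 1.04 times for the unmarked windows at the level. GRTS windows had ratios of 3.19 and 4.19. In N2 the ratio of the 342 windows was 4.83 and 4.40, on 50 and 74 cytoplasmic reads, against 1.03 and 1.10 for the unmarked windows at the level and 6.51 and 5.79 for GRTS windows. In hrde-1 the 342 windows thus lay between the bulk of unmarked windows and the GRTS windows. For N2 the rule asked for a low mean that includes the cytoplasmic libraries, where 1 read is worth 4.58 or 3.15. The N2 ratio of the 342 was thus partly set by the choice. It is not read against that of other windows or of hrde-1.

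By window, with limma on log2(coverage + 1), 76 of the 342 windows (22.2%) were higher in nuclear than in cytoplasmic RNA of hrde-1 at an adjusted p under 0.05, where 4.63% of all 43933 windows tested and 3.99% of the unmarked windows at the level were. None of the 342 was lower, where 2.30% of all windows were, and 133 of the 342 (38.9%) had an unadjusted p under 0.05 in either direction, against 23.3% of all windows. Their median log2 difference was 0.66, against 0.30 over all windows and 0.07 over the unmarked windows at the level. All 342 passed the filter on low values, a mean of at least 1 over the 12 libraries, through the level in hrde-1 that the rule asked for. The unmarked windows at the level share that bound but not the fold. The shares thus stand beside each other as a description. The log2(coverage + 1) scale understates the change of low windows. The count of 76 became 39 or 44 when the generation 3 or generation 4 nuclear library of hrde-1 was left out, and 49 or 45 when a cytoplasmic one was. In a fit of the 2 compared groups alone, with fewer degrees of freedom, it was 0.

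On average the 76 windows had little coverage in hrde-1 cytoplasmic RNA. Their mean coverage in hrde-1 was 21.7 in nuclear, 6.11 in whole and 1.26 in cytoplasmic RNA, and 35 of them had no cytoplasmic read in hrde-1 at all. The remaining 266 had 11.5, 8.97 and 9.69 in the same order. Since the 76 were split off by the nuclear minus cytoplasmic difference itself, their low cytoplasmic coverage restates the call. Of the 266, the difference was above 0 in both generations in 114 and below 0 in both in 70, so their like means join windows of either direction. Both hrde-1 nuclear libraries lay above both cytoplasmic libraries in 171 of the 342 (50%), against 27.9% of the unmarked windows at the level. Both cytoplasmic libraries lay above both nuclear ones in 54 (15.8%), against 22.3%.

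**Figure D4:**
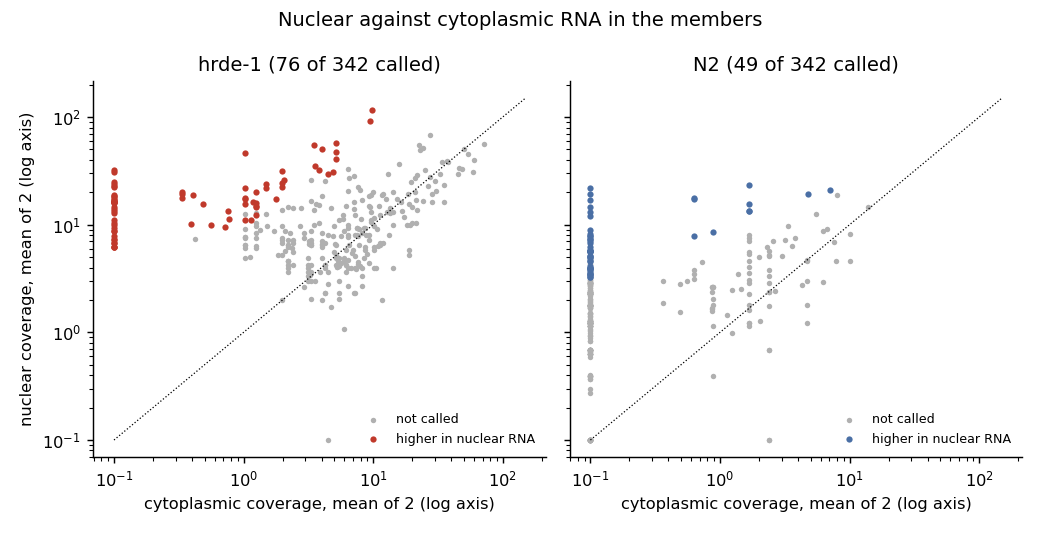
Mean nuclear coverage against mean cytoplasmic coverage (log axes, 2 libraries each) of each of the 342 windows in hrde-1 (left) and N2 (right); coloured points were called higher in nuclear RNA (76 in hrde-1 and 49 in N2), grey points were not, and the dotted line marks equal coverage. In hrde-1 the windows form a cloud along the line and a group far above it at low cytoplasmic coverage; in N2 most windows stand at the cytoplasmic floor of 0.1.

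Among the 342, the share of called windows differed with their place. Of the 61 windows within 10 kb of a GRTS window, 36 (59.0%) were called higher in nuclear RNA of hrde-1, and of the 33 at 2 kb, 21 (63.6%). Of the 281 farther away or on chromosome X, 40 (14.2%) were. Windows near GRTS windows had a median log2 difference of 2.76, against 0.31 for the others. On chromosome X it was 19 of 67, on V 24 of 84, on III 11 of 38, on I 11 of 45, on IV 7 of 62 and on II 4 of 46. Of the 17 windows with no read in N2, 12 were called. Over all places, 4.63% of all windows tested and 3.99% of the unmarked windows at the level were called. The share by place was not counted for windows outside the 342, so none is read as a trait of the 342. These shares are counts within the 342 and were not tested against each other.

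Among the 10 regions, 11 of the 12 windows on chromosome X from 17120001 to 17133000 were called (lowest limma adjusted p = 0.000549), and 5 of 5 on chromosome III from 13233001 to 13238000 (lowest limma adjusted p = 0.00119). On chromosome V from 18118001 to 18125000, 3 of 6 were called, 0 when either nuclear library of hrde-1 was left out, 1 when one of its whole or cytoplasmic libraries was, and 5 when a cytoplasmic library of N2 was. On chromosome X from 16827001 to 16839000, 1 of 11 was called. None was called in the other 6 regions, where the lowest adjusted p was 0.0519, on chromosome IV from 2902001 to 2915000. Leaving out 1 hrde-1 nuclear or cytoplasmic library lowered the first count to 6 or 7, and leaving out the hrde-1 cytoplasmic library of generation 3 lowered the second to 3.

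The windows with the largest nuclear excess were each nearly absent from the hrde-1 cytoplasm. On chromosome V from 18444001 to 18445000, 3 kb from a GRTS window, coverage in hrde-1 was 23.2 and 40.9 in nuclear, 1.47 and 1.34 in whole and 0.1 and 0.1 in cytoplasmic RNA, against 0.1 in each of the 6 N2 libraries. In nuclear RNA hrde-1 was at least 19.1-fold higher than N2, taking 3 reads over both libraries for N2. The nuclear minus cytoplasmic log2 difference in hrde-1 was 4.86 (SE 0.57, limma adjusted p = 0.000115). The neighbouring window from 18445001 to 18446000 had 29.0 and 20.5 in nuclear and 0.1 and 0.1 in cytoplasmic RNA of hrde-1 (log2 4.53, limma adjusted p = 0.000488). These 2 windows lie side by side and may belong to 1 transcript.

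The other 3 lay apart from each other. On chromosome III from 13162001 to 13163000, 69 kb from a GRTS window and 1 kb from a GRH window, nuclear coverage in hrde-1 was 34.8 and 26.9 and cytoplasmic coverage 0.1 and 0.1 (log2 4.84, limma adjusted p = 0.000427). On chromosome I from 12655001 to 12656000 it was 54.1 and 37.7, against cytoplasmic coverage of 1.97 and 0.1 (log2 4.68, limma adjusted p = 0.000693). On chromosome II from 2164001 to 2165000 it was 27.2 and 20.9, against 0.1 and 0.1 (log2 4.50, limma adjusted p = 0.00343). The last of these missed the threshold when the generation 3 nuclear library of hrde-1 was left out, with an adjusted p of 0.0534, within a range of 0.000111 to 0.0795 over its alternatives. On chromosome I from 13853001 to 13854000, the highest of the nuclear windows, the log2 difference was 3.54 (limma adjusted p = 0.00616). When the generation 3 nuclear or cytoplasmic library of hrde-1 was left out, its adjusted p was 0.0922 or 0.0645, within a range of 4.43e-06 to 0.0984.

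Against whole RNA, which comes from deeper libraries than cytoplasmic RNA, 3 of the 342 windows were higher in nuclear RNA of hrde-1, where 0.0296% of all windows were, and 0 were lower, where 0.310% were. The 3 were chromosome V from 18444001 to 18445000 (log2 3.73, limma adjusted p = 0.0115) and 2 windows of the region at 17120001 on chromosome X. The pair on X started at 17121001 (log2 3.63, limma adjusted p = 0.0218) and at 17130001 (log2 3.83, limma adjusted p = 0.0191). The median log2 difference over the 342 was 0.59, against 0.09 over all windows, and 76 of the 342 (22.2%) had an unadjusted p under 0.05, against 10.6% of all windows. The limits from the choice and the filter given above hold for this comparison too. Leaving out either whole library of hrde-1, or its generation 4 nuclear library, gave a count of 0, and leaving out its generation 3 nuclear library gave 1.

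In N2 the 342 windows had few reads. They passed the filter on low values through their level in hrde-1, so their count in N2 is not read against that of other windows. In the same limma fit, 49 (14.3%) were higher in nuclear than in cytoplasmic RNA, where 14.0% of all windows were, and 0 were lower, where 1.99% were, with 114 (33.3%) at an unadjusted p under 0.05, against 34.0% of all windows. The median log2 difference was 1.08, against 0.82 over all windows. Of the 76 windows called in hrde-1, 9 were also called in N2. In N2, 251 of the 342 had no cytoplasmic read. Leaving out the generation 3 or generation 4 nuclear library of N2 gave a count of 8 or 12, and leaving out its generation 3 cytoplasmic library gave 31.

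Whether the nuclear excess differed between genotypes was tested as the difference of both differences. By limma, 0 of the 342 windows were higher in hrde-1 and 0 lower, as for all windows (0%), with a lowest adjusted p of 0.181. Without adjustment, 97 of the 342 (28.4%) had p under 0.05, against 11.5% of all windows. The median was -0.33, against -0.42 over all windows. The rule held the N2 values of the 342 low, and they passed the filter through their level in hrde-1. Their share and median are thus not read against those of other windows. Leaving out the generation 3 cytoplasmic library of N2, 1 window was called higher and 5 lower, and leaving out that of generation 4, 9 higher and 21 lower. With 10 added before the logarithm, 17 were called higher and 1 lower. The p-values that miss the threshold do not show that the nuclear excess was alike in both genotypes.

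Some values were not whole numbers of reads. Of the low values of the 342 windows, under 40, 35.2% lay between whole-read steps with a tolerance of 0.03 reads, against 9.46% for the unmarked windows at the level and 40.5% for GRTS windows at the level. Of these between-step values, 27.6% lay midway between steps, and no label or header gives the authors' treatment of such reads. In 105 windows (30.7%) more than 50% of the low values were of this kind, and in 174 (50.9%) none was. The 174 windows had mean nuclear coverage of 12.2 in hrde-1, against 2.89 in N2, and the 105 had 15.6 in hrde-1, against 3.68 in N2.

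Windows that looked alike in all 12 libraries were found for 112 of the 342, taking a summed difference of at most 10% of the summed coverage. This search was not run for windows outside the 342, so the 112 are not read as a trait of the 342. In 59 of the 112 the partner was itself 1 of the 342, so a pair can be counted from both sides. Among the 105 windows with mostly between-step values, 59 (56.2%) had such a partner, and among the 174 with none, 35 (20.1%). With 30 or more hrde-1 reads, the counts were 27 of 52 (51.9%) and 10 of 54 (18.5%). The closest pair was chromosome II from 14689001 to 14690000 and chromosome IV from 509001 to 510000, which differed by 0.743%. Windows near them on II and IV, from 14691001 and 511001, differed by 1.44%, and those from 14688001 on II and 508001 on IV each differed by 1.39% from a window on V from 766001. Counting that divides reads between near-identical copies was not tested as a source of these matches, and the levels at these 3 places are uncertain. In the pair of regions at the left end of chromosome X, the windows from 227001 and 237001 differed by 8.04%, and those from 231001 and 240001 by 8.18%. The window on IV from 1980001 to 1981000 differed by 5.38% from a window on V from 17569001 to 17570000 that is itself marked GRTS. In the region on X from 17120001, the window from 17122001 differed by 8.16% from a GRTS window on V from 8876001. Those from 17121001, 17123001 and 17127001 differed by 6.24%, 6.69% and 5.75% from unmarked windows on V. These partners on V started 1 or 2 kb from a GRTS window. On III, in the region from 13233001, the windows from 13237001 and 13236001 differed by 5.99% and 6.44% from unmarked windows on V. Those from 13235001 and 13233001 differed by 9.51% and 9.77% from GRTS windows on V. In that on IV from 2902001, the windows from 2912001 and 2911001 differed by 6.22% and 6.69% from the window on I from 235001. In that on X from 16827001, those from 16833001 and 16834001 differed by 8.44% and 8.48% from the window on IV from 1980001. Levels of all these windows are uncertain in the same way.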

How the data were processed

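RNA was measured in 12 libraries of 6 groups. The deposited values are the authors' normalized coverage, a signal per 1000-base window; the submitters' processing notes list Bowtie 0.12.7. No label or header gives the genome build, strand, scale or treatment of reads with several places. Read equivalents were computed from the step of low values in each library, and intervals and floors cover counting error only. The members, regions and lists were chosen with earlier results of these data known. Members joined across at most 1 window formed regions. The text names the 10 regions with the most members, the 5 further windows highest in hrde-1, up to 5 with the largest and smallest nuclear minus cytoplasmic difference among called windows, and those at the fold's edge; no member was called lower. limma 3.58.1 in R 4.3.3 (lmFit, eBayes with a trend) fitted log2(coverage + 1) of 43933 windows with a mean of at least 1, two-sided, Benjamini-Hochberg over all windows, 6 residual degrees of freedom (4 with generation terms). The method was tested on simulated data. Alternatives changed pseudocount, filter, scaling, fit, replicate block and libraries.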

Additional observations from a re-analysis of the deposited data

Results flagged for a closer look

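Nuclear minus cytoplasmic log2 differences had opposite signs in hrde-1 and N2, in both generations, in 3 named windows and 2 named regions. The rule held the N2 values low, in cytoplasmic libraries where 1 read is worth 4.58 or 3.15. The N2 differences were thus partly set by the choice, so the signs are listed and nothing is read from their contrast. In the window on chromosome X from 4713001 to 4714000 they were -0.40 and -0.28 in hrde-1, against 4.18 and 0.25 in N2, a difference of -2.56 (limma adjusted p = 0.428). The 4.18 rests on an N2 cytoplasmic value at the floor of 0.1 in generation 3, where 1 read is worth 4.58, so its size is uncertain. In that on chromosome II from 1847001 to 1848000 they were -0.09 and -0.46 in hrde-1, against 4.05 and 1.31 in N2, a difference of -2.95 (limma adjusted p = 0.242), and the 4.05 likewise rests on an N2 cytoplasmic value of 0.1, with 1 read over both libraries. In that on chromosome I from 9710001 to 9711000 they were -1.37 and -0.06 in hrde-1, against 1.53 and 0.51 in N2. That is a difference of -1.74 (limma adjusted p = 0.334), with 3 N2 cytoplasmic reads over both libraries. In the region on chromosome I from 13930001 they were -0.05 and -0.03 in hrde-1, against 1.65 and 0.80 in N2. That is a difference of -1.26 that was not tested, with 3 N2 cytoplasmic reads and hrde-1 differences too small to give a sure sign. In the region on chromosome V from 10852001 the log2 differences were -0.72 and -0.79 in hrde-1, against 0.43 and 1.17 in N2. That is a difference of -1.55 that was not tested.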

How the results depend on the processing

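The rule's count of 342 became 976 at a fold of 1.5, 131 at a fold of 3, 565 and 38 with 0.1 and 10 added in the fold, 95 with a minimum mean of 10, and 266 to 555 without 1 library (555 without the N2 nuclear library of generation 4). Chosen after seeing the data, 174 had no value between whole-read steps, and the rule without the 4 cytoplasmic libraries found 375, sharing 247. For nuclear above cytoplasmic RNA in hrde-1, the count of 76 was 8 with a mean of at least 10, 0 with the compared groups alone and 39 to 87 without 1 library; the count lower, 0, was 1, 3 and 1 with a pseudocount of 0.1, of 10 and with no filter, and 0 to 1 without 1 library. Nuclear above whole RNA, 3 windows, became 0, 52, 6, 0 and 0 with a pseudocount of 0.1, of 10, no filter, a mean of at least 10 and the compared groups alone, and 0 to 3 without 1 library. In N2 the count of 49 became 86, 18, 17, 21 and 103 with a pseudocount of 0.1, of 10, a mean of at least 10, median scaling and the compared groups alone, and 8 to 49 without 1 library, with 0 to 1 lower. For the difference between genotypes, 17 higher and 1 lower were called with a pseudocount of 10, 7 and 13 with no filter, and 0 to 9 and 0 to 21 without 1 library. Generation calls stayed at 0 without 1 library. Median scaling moved the median of all windows by -0.35 (nuclear minus cytoplasmic, hrde-1), -0.66 (N2), -0.21 (nuclear minus whole) and 0.32 (difference between genotypes). It also changed the count of 76 to 61, and the median log2 difference of the 342 in that comparison from 0.66 to 0.28. With a mean of at least 10, fewer of the 342 were tested, so those counts are not out of 342. With generation as a replicate block the 76 became 80 and the 49 became 44. Generation deviations correlated by 0.011 to 0.0793 over 15 pairs of groups. Counting error in windows of few reads lowers such correlations, so they do not tell whether libraries of a generation share a culture. The near-zero difference on chromosome X from 4714001 to 4715000 was -0.44 under median scaling, and -0.23 to 0.23 without 1 library (-0.08 without the hrde-1 cytoplasmic library of generation 3). Of 376 values for named windows and regions, 332 kept their side or stayed within 1.5 times, 31 counts of called windows in regions moved further, and 10 lost the call, 6 of these in the fit of the compared groups alone. The causes were not tested.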
